A study of Homo sapiens with 6 samples.

Results

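The semaphorins, neuropilins and plexins were examined in RNA sequencing of cells labelled HepG2, a human liver cancer line, as controls (shNC, genotype WT, n = 3 libraries) or after lentiviral knockdown of ARHGEF2 (shARHGEF2, n = 3 libraries). Both groups were grown in the same medium with 10% serum, and the labels do not say whether the 3 libraries of a group came from separate cultures or how many hairpins were used. P-values therefore measure only the spread between these libraries, which may be technical. Of the 27605 genes of the deposited table, 10 were chosen by name: the secreted class 3 semaphorins SEMA3F, SEMA3A, SEMA3B and SEMA3C, the transmembrane semaphorin SEMA4B, the neuropilins NRP1 and NRP2, and the plexins PLXNA1, PLXNA3 and PLXNB2. They were chosen with the level of SEMA3F in these same libraries in view, which was higher in every shARHGEF2 library, so their differences between the groups are given as a description without a p-value. Of the 10 genes, 9 averaged 0.5 FPKM or more (fragments scaled by transcript length and library depth) over the 6 libraries and were tested. SEMA3A did not.

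Semaphorins are guidance cues that steer growing axons, blood vessels and migrating cells, mostly by repulsion. Class 3 semaphorins are secreted and bind a neuropilin, which carries the ligand to a plexin of the A class, while semaphorins of class 4 and some of the transmembrane classes bind plexins directly. The cytoplasmic part of a plexin inactivates small GTPases of the Ras and Rap type. Neuropilins also act as co-receptors of vascular endothelial growth factor. SEMA3F, which signals mainly through NRP2, is known as an inhibitor of tumour angiogenesis and metastasis, and the study asked whether ARHGEF2 in liver cancer cells affects angiogenesis.

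The knockdown was visible in each library. ARHGEF2, the targeted gene, had 13.0, 14.4 and 13.9 FPKM in shNC and 4.25, 4.0 and 4.82 FPKM in shARHGEF2 cells, a difference of -1.47 in mean log2(FPKM + 1) (standard error 0.11, adjusted p = 0.00244 in limma, and p = 0.1 in a two-sided exact permutation test, the smallest p that 3 libraries against 3 allow). It missed the threshold with a replicate block (adjusted p = 0.0716 in limma). The depth, estimated from the spacing of low values, was between 19700000 and 23000000 read pairs per library. Markers of the labelled cell type were nearly absent. Of 10 hepatocyte genes, 4 had a value, with at most 0.248 FPKM in any library (AFP, APOA1, SERPINA1 and HNF4A), and the other 6 were not analysed here. Keratins KRT8 and KRT18 summed with EPCAM and CDH1 to between 271.6 and 382.5 FPKM, although EPCAM and CDH1 did not exceed 0.0547 FPKM. Of 6 fibroblast markers, 5 had a mean of at least 0.5 FPKM, led by LUM, a matrix proteoglycan gene, with 22.5 to 39.0 FPKM. COL1A1, a collagen chain gene of this list, had 6.23, 6.81 and 6.08 FPKM in shNC and 9.60, 8.26 and 8.12 FPKM in shARHGEF2 libraries, with no overlap (ratio 1.36, adjusted p = 0.188 in limma), and it was the 1 gene of the list with an unadjusted p under 0.05. Among all genes tested, 11.3% had groups that did not overlap upwards. Of the 5 tested markers of this list, 3 were higher and 2 lower, namely LUM (ratio 0.829) and DCN (ratio 0.794). COL1A2 did not exceed 0.0453 FPKM. The list summed to 39.8 to 52.7 FPKM in shNC and 38.7 to 45.6 FPKM in shARHGEF2 libraries. Endothelial markers summed to 0.634 to 0.680 FPKM in shNC and to 0.826 to 0.918 FPKM in shARHGEF2 libraries, most of it PECAM1, and leukocyte markers, nearly all of it CD68, to 60.6 to 88.0 FPKM and 75.3 to 85.7 FPKM. The part of these cell markers in the results was not tested. The values below thus describe the semaphorin system of the libraries labelled HepG2, and in bulk RNA fewer cells and less RNA per cell cannot be told apart.

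SEMA3F (ENSG00000001617) was the most abundant semaphorin in all 6 libraries. It had 40.6, 38.2 and 46.4 FPKM in shNC replicates 1 to 3 and 60.2, 53.3 and 53.3 FPKM in shARHGEF2 replicates 1 to 3. Every shARHGEF2 library lay above every shNC library, which is the pattern it was chosen for. Its mean rested at 41.8 ± 4.22 FPKM for shNC and 55.6 ± 3.99 FPKM for shARHGEF2 (SD, n = 3 libraries each), which gives a ratio of 1.33 and a difference of 0.41 in mean log2(FPKM + 1) (standard error 0.10). SEMA3F-AS1, a noncoding gene that shares exon sequence with SEMA3F on the opposite strand, had at most 0.0968 FPKM and so could add little to these values. The 250 bases upstream of a start of SEMA3F are shown with those of SEMA3B, its neighbour on chromosome 3, and of SEMA7A. SEMA7A is another semaphorin gene whose groups did not overlap. The windows are printed to show examples with and without the letters CACCTG or CAGGTG. For SEMA3F and SEMA3B the window printed was picked because it holds the letters in capitals. They are from RefSeq on GRCh38.p14, where 8 of the 10 chosen genes had such a window, and lie at chr3:50154808-50155057 (plus strand), chr3:50267402-50267651 (plus strand) and chr15:74433959-74434208 (minus strand). Capitals mark CACCTG or its reverse complement CAGGTG, the form of the E-box (CANNTG) that Snail and ZEB repressors bind. Other forms of the E-box also occur in these windows, that of SEMA7A included, and are not marked.
SEMA3F: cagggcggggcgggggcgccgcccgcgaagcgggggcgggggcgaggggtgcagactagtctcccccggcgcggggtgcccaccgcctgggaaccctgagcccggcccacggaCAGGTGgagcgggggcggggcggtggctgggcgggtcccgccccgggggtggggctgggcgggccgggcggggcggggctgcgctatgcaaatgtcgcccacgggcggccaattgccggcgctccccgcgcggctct
SEMA3B: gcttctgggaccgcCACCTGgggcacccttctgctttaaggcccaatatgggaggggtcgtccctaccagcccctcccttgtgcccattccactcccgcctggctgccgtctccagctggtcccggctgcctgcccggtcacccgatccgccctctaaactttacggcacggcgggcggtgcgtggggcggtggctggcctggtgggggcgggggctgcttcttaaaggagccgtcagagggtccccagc
SEMA7A: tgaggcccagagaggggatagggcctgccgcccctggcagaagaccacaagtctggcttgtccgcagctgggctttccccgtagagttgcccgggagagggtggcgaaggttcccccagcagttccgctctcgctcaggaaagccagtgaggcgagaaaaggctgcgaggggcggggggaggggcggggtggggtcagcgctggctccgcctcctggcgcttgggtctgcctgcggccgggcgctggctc
These letters stood in 1 of 3 windows of SEMA3F, in 1 of 5 of SEMA3B and in 0 of 2 of SEMA7A, against 17.5% of all 35116 windows of this length. The printed SEMA3F window was 82.0% G and C and held 34 CG pairs, the SEMA3B window was 68.8% G and C with 16 pairs, and the median over all windows was 58.0% and 11 pairs. A match describes the letters in the window and is not evidence of binding.

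The other secreted ligands varied less between the groups. SEMA3B (ENSG00000012171), like SEMA3F a gene with tumour suppressor properties, had 23.4, 23.7 and 23.6 FPKM in shNC and 27.9, 25.6 and 25.2 FPKM in shARHGEF2 libraries. The groups did not overlap, and the ratio of their means was 1.12 (difference 0.15 in mean log2(FPKM + 1), standard error 0.09), but with a GC trend removed from each library the difference was 0.09 and the groups overlapped. SEMA3C (ENSG00000075223), a ligand that promotes migration in several tumours, had 2.96, 4.86 and 3.65 FPKM in shNC and 2.71, 5.49 and 3.84 FPKM in shARHGEF2 libraries. These ranges covered each other, and the libraries numbered 2 were the highest of both groups. SEMA3A (ENSG00000075213), the founding repellent that acts through NRP1, lay between 0.0647 and 0.147 FPKM in shNC and between 0.0697 and 0.187 FPKM in shARHGEF2 libraries. At an estimated 11.5 to 33.3 read pairs per library, no difference was detectable for it at this depth. The transmembrane ligand SEMA4B (ENSG00000185033) had 9.92, 9.39 and 12.3 FPKM in shNC and 11.7, 10.4 and 11.2 FPKM in shARHGEF2 libraries, all 3 of the latter within the shNC range.

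**Figure D1:**
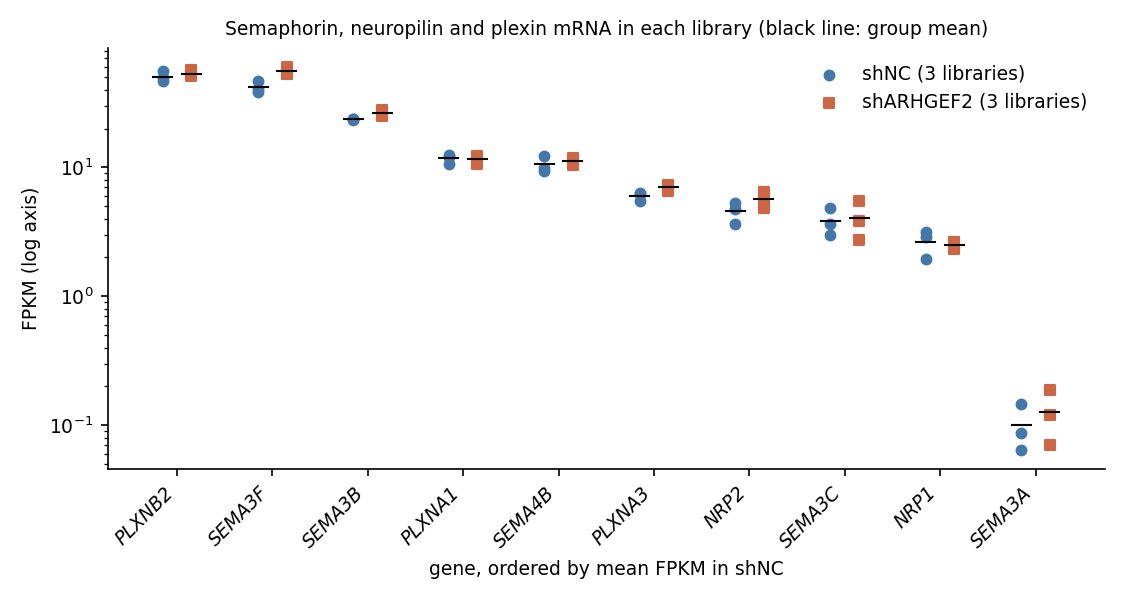
FPKM on a log axis of the 10 chosen genes in each library, with circles for the 3 shNC and squares for the 3 shARHGEF2 libraries and a black line at each group mean. The genes span from SEMA3A at about 0.1 FPKM to PLXNB2 and SEMA3F near 50 FPKM, and SEMA3F, SEMA3B and PLXNA3 are the genes whose groups do not overlap, SEMA3B not so once a GC trend is removed.

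Among the receptors, NRP2 (ENSG00000118257), the neuropilin that binds SEMA3F with high affinity, had 3.66, 4.78 and 5.29 FPKM in shNC and 4.87, 6.47 and 5.67 FPKM in shARHGEF2 libraries. Its groups overlapped, with a ratio of means of 1.24 and a difference of 0.26 in mean log2(FPKM + 1) (standard error 0.15). NRP1 (ENSG00000099250), the receptor of SEMA3A and of vascular endothelial growth factor, had 1.95, 3.13 and 2.88 FPKM in shNC and 2.32, 2.61 and 2.61 FPKM in shARHGEF2 libraries, the latter all within the shNC range. The share of NRP2 in the summed FPKM of both neuropilins was 60.5% to 65.2% in shNC and 67.7% to 71.2% in shARHGEF2 libraries, so these ranges did not overlap although those of each gene did. This share was not tested, and the groups did not overlap in 20.5% of all genes tested.

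Plexin-A1 and plexin-A3 are the signalling partners of neuropilin-bound class 3 semaphorins. PLXNA1 (ENSG00000114554) had 10.5, 12.1 and 12.6 FPKM in shNC and 12.3, 10.6 and 11.7 FPKM in shARHGEF2 libraries, a difference of -0.02 in mean log2(FPKM + 1) (standard error 0.11). PLXNA3 (ENSG00000130827), a partner of NRP2 in the response to SEMA3F, had 5.49, 6.16 and 6.33 FPKM in shNC and 7.32, 6.61 and 7.17 FPKM in shARHGEF2 libraries. Each shARHGEF2 library lay above each shNC library, with a ratio of means of 1.17. PLXNA3 shares exon sequence with LAGE3 on the opposite strand, whose mean was 138.9 FPKM in shNC and 118.4 FPKM in shARHGEF2 cells. Whether strand was used in counting is not given in the sources used here, so the PLXNA3 values are uncertain. PLXNB2 (ENSG00000196576), a receptor of class 4 semaphorins, had 47.0, 49.3 and 55.5 FPKM in shNC and 56.8, 51.9 and 51.2 FPKM in shARHGEF2 libraries, with overlapping groups and a difference of 0.08 in mean log2(FPKM + 1) (standard error 0.10).

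FPKM is scaled by transcript length, so the levels of different genes could be set side by side. In shNC cells the order by mean FPKM was PLXNB2, SEMA3F, SEMA3B, PLXNA1, SEMA4B, PLXNA3, NRP2, SEMA3C, NRP1 and SEMA3A. The ranges over libraries of PLXNA1 and SEMA4B, of NRP2 and SEMA3C, and of SEMA3C and NRP1 overlapped, and the other 6 neighbouring pairs were apart. In shARHGEF2 cells SEMA3F (53.3 to 60.2 FPKM) stood above PLXNB2 (51.2 to 56.8 FPKM) by its mean, but their ranges overlapped. The SEMA3F level was between 7.99 and 11.1 times that of NRP2 in shNC and between 8.23 and 12.3 times in shARHGEF2 libraries, which did not separate the groups. Relative to SEMA3B, SEMA3F stood at 1.62 to 1.97 times in shNC and at 2.08 to 2.15 times in shARHGEF2 libraries. The group difference that SEMA3F was chosen for enters this ratio.

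Summed over the 20 semaphorin genes with a value, the level was 97.6, 92.4 and 105.8 FPKM in shNC and 129.0, 121.2 and 117.5 FPKM in shARHGEF2 libraries. This sum includes SEMA3F, which was chosen for its higher level in every shARHGEF2 library, so no rise of the family is read from it. SEMA3F made up 41.4% to 43.9% of this sum in shNC and 43.9% to 46.6% in shARHGEF2 libraries. The share of SEMA3B was lower in shARHGEF2 libraries (21.1% to 21.6%) than in shNC libraries (22.3% to 25.6%), although its own FPKM was higher. The sum over the 9 plexin genes was 95.5, 100.8 and 117.1 FPKM in shNC and 117.1, 106.5 and 112.0 FPKM in shARHGEF2 libraries, and these groups overlapped. PLXNB2 gave 45.7% to 49.2% of the plexin sum and PLXND1 23.4% to 27.8% over all 6 libraries.

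**Figure D2:**
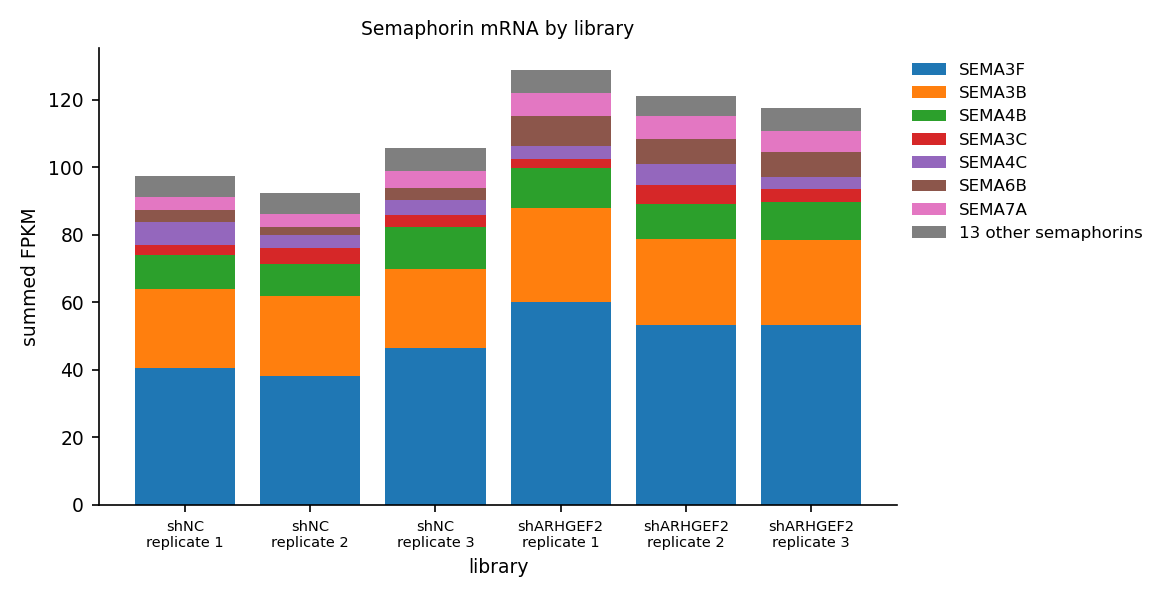
Summed FPKM of the semaphorin genes in each of the 6 libraries, stacked by gene, with 13 other genes joined in grey. The total reaches 92.4 to 105.8 FPKM in the 3 shNC and 117.5 to 129.0 FPKM in the 3 shARHGEF2 libraries, and SEMA3F is the tallest segment in each bar. The total includes SEMA3F, which was chosen for its higher level in the shARHGEF2 libraries.

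The chosen genes were read against the whole table. In limma, 34 of the 12291 genes tested (0.277%) had an adjusted p under 0.05, 24 (0.195%) higher and 10 (0.0814%) lower in shARHGEF2 cells. An unadjusted p under 0.05 was reached by 13.7% of all genes, 8.1% upwards and 5.55% downwards. Among the 9 chosen genes the groups did not overlap in 3, each higher in shARHGEF2 cells, beside 20.5% of all genes in either direction, 11.3% upwards and 9.17% downwards. Fitted differences were above 0 for 7 and below 0 for 2 of the 9 genes, beside 49.6% above 0 among all genes, with a median of 0.08 against -0.0016 for all genes tested. Since SEMA3F was chosen for this contrast, nothing is read from these counts.

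The other 21 semaphorin and plexin genes were not part of the choice, and 11 of them were abundant enough to be tested. SEMA6B (ENSG00000167680), a transmembrane semaphorin whose family binds plexins of the A class, rose in shARHGEF2 cells. It had 3.72, 2.48 and 3.44 FPKM in shNC and 9.03, 7.40 and 7.30 FPKM in shARHGEF2 libraries, with no overlap. Its mean changed from 3.21 ± 0.651 to 7.91 ± 0.973 FPKM (SD, n = 3 each), a ratio of 2.46 and a log2 difference of 1.09 (standard error 0.15, adjusted p = 0.0302 in limma). Its share of the summed semaphorin FPKM was 2.68% to 3.81% in shNC and 6.10% to 7.00% in shARHGEF2 libraries. The call was held in 4 of 13 alternative fits, among them that without shNC replicate 3, and lost in the 5 fits that left out any other library (adjusted p = 0.0762 to 0.0975 in limma), while the log2 difference stayed between 0.95 and 1.29.

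SEMA7A (ENSG00000138623), a membrane-anchored semaphorin that binds integrins and plexin-C1, had 3.89, 3.66 and 5.10 FPKM in shNC and 6.74, 6.62 and 6.24 FPKM in shARHGEF2 libraries. The groups did not overlap and the ratio of means was 1.55, but the gene was not called (log2 difference 0.54, standard error 0.13, adjusted p = 0.136 in limma). SEMA6C, also transmembrane, averaged 0.836 ± 0.313 FPKM without and 1.25 ± 0.166 FPKM with the knockdown (SD, n = 3 each, log2 difference 0.31, adjusted p = 0.395 in limma). SEMA3G, SEMA4C, SEMA4D and SEMA4F had log2 differences of -0.07, -0.12, -0.08 and -0.02, with adjusted p between 0.831 and 0.970 in limma. SEMA4C had the widest spread of these 4, from 3.89 to 6.89 FPKM in shNC and from 3.68 to 6.36 FPKM in shARHGEF2 libraries. Of the other plexins, PLXND1, the receptor of SEMA3E in blood vessels, was the most abundant at 26.0 ± 4.68 FPKM without and 28.6 ± 2.72 FPKM with the knockdown (SD, n = 3 each). PLXNA2, PLXNB1, PLXNB3 and PLXND1 had log2 differences of 0.09, 0.14, 0.16 and 0.14, with adjusted p between 0.643 and 0.812 in limma. In all, 11 of these 21 genes were tested, and 1 was called upwards and 0 downwards, beside 0.195% and 0.0814% of all genes tested. At an unadjusted p under 0.05 in limma the numbers were 2 (SEMA6B and SEMA7A) and 0, beside 8.1% and 5.55% of all genes. The other 10 of the 21 genes, including the SEMA3E gene and PLXNC1, did not exceed 0.165 FPKM in any library.

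**Figure D3:**
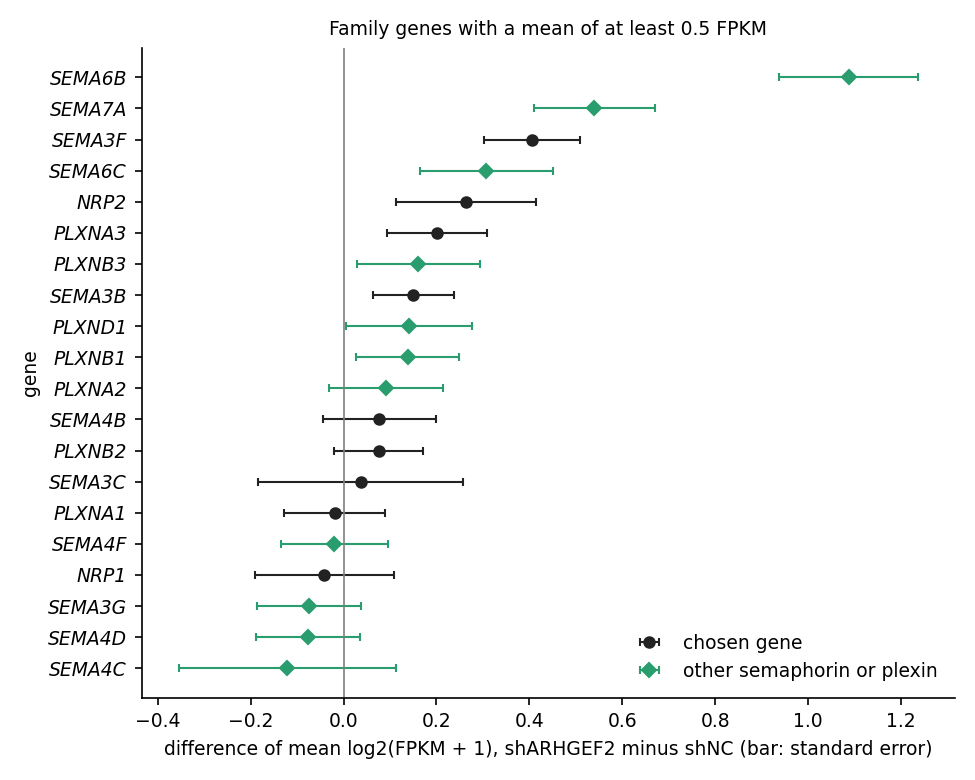
Difference of mean log2(FPKM + 1), shARHGEF2 minus shNC, with its standard error, for the 20 semaphorin, neuropilin and plexin genes that were tested. Circles are chosen genes and diamonds the others; SEMA6B stands at 1.09, followed by SEMA7A at 0.54 and SEMA3F at 0.41, and SEMA4C is lowest at -0.12.

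Genes that act with the semaphorin receptors were then counted by role. Among 7 tested co-receptors, which include the adhesion molecule L1CAM and the receptor kinases MET, MST1R and ERBB2, 4 were higher and 3 lower, and 0 passed at an adjusted or an unadjusted p under 0.05 in limma. L1CAM, a partner of neuropilin-1 in the response to SEMA3A, was abundant in these libraries, with 153.8 to 171.5 FPKM in shNC and 161.6 to 168.9 FPKM in shARHGEF2 cells. Of 30 tested genes of signalling below plexins, 19 were higher and 11 lower. None was called in limma, and 2 passed at an unadjusted p under 0.05, both higher, beside 8.1% of all genes upwards. CFL1, the actin-severing protein cofilin, had a ratio of 1.33 (adjusted p = 0.282 in limma). RRAS, a Ras-type substrate of plexins, had a ratio of 1.22 (adjusted p = 0.324 in limma). The median log2 difference of this list was 0.03. Proteases that cleave semaphorins, FURIN among them, gave 5 tested genes, of which 3 were higher and 2 lower, with 0 passing at an adjusted or an unadjusted p under 0.05 in limma. For the VEGF ligands, which share the neuropilins, 1 of 4 tested genes was higher and 3 were lower, again with 0 passing at either threshold in limma.

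E-box factors and ID proteins were listed because ZEB1 and the ID2 partner of E proteins are known regulators of SEMA3F. SNAI1, a repressor that binds the E-box form shown in capitals above, rose from 9.92 ± 1.79 to 18.9 ± 0.944 FPKM (SD, n = 3 each). It had 9.58, 8.33 and 11.9 FPKM in shNC and 19.1, 19.7 and 17.9 FPKM in shARHGEF2 libraries, a log2 difference of 0.88 (standard error 0.13, adjusted p = 0.0454 in limma). The call was held in 4 of 13 alternative fits and lost in 5 of the 6 that left out a library, all but that without shNC replicate 3 (adjusted p = 0.101 to 0.161 in limma). TCF3, which encodes the E proteins E12 and E47, averaged 12.3 ± 0.0914 FPKM without and 14.9 ± 1.16 FPKM with the knockdown and was not called (SD, n = 3 each, adjusted p = 0.319 in limma). ZEB1 did not exceed 0.457 FPKM and was not tested. SNAI2, ID1, ID2 and ID3 had log2 differences of -0.08, -0.07, 0.04 and -0.06, with adjusted p between 0.868 and 0.936 in limma. Of the 6 tested genes of this list, 3 were higher and 3 lower, and 1 was called. At an unadjusted p under 0.05, 2 passed, both higher, beside 8.1% of all genes upwards. SNAI3, a Snail family gene that is not in this list and was looked up after results were seen, was also called, with a mean of 0.657 FPKM in shNC and 1.98 FPKM in shARHGEF2 cells (log2 difference 0.85, standard error 0.11, adjusted p = 0.0302 in limma).

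**Figure D4:**
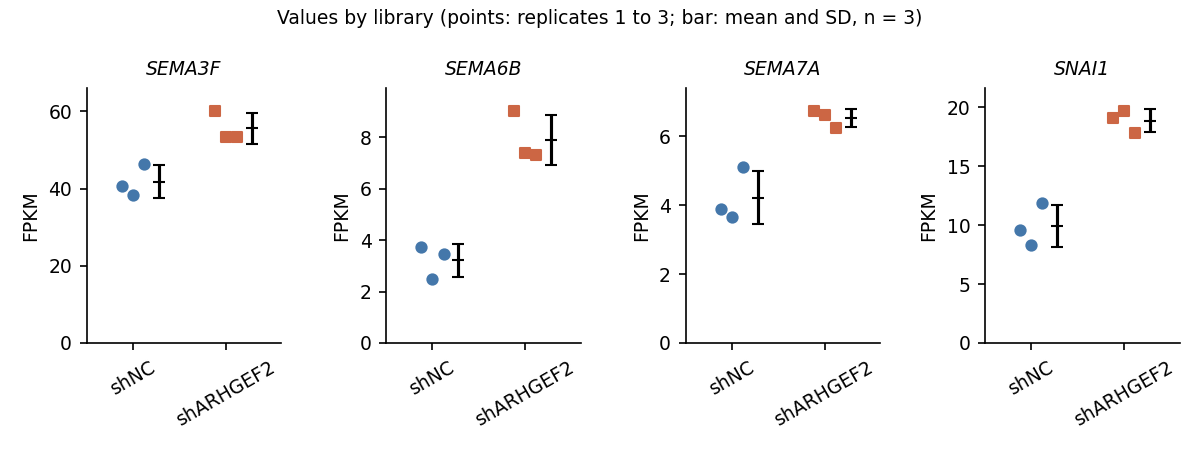
FPKM by library, on linear axes from 0, of SEMA3F, SEMA6B, SEMA7A and SNAI1, with points for replicates 1 to 3 of each group and a bar for the mean and SD (n = 3). In each panel all shARHGEF2 points lie above all shNC points, and SEMA3F was chosen for this pattern.

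Other families of guidance cues, namely netrins, slits, ephrins and their receptors, were compared as a neighbouring group. Of 15 tested genes, 13 were higher and 2 lower after the knockdown, and the list's median log2 difference was 0.16. None was called in limma, and 6 passed at an unadjusted p under 0.05, all higher, where 8.1% of all genes did so upwards. The 4 with the smallest p were EPHB3, UNC5B, EFNA2 and EFNA3, with ratios of 1.83, 1.69, 1.87 and 1.33. EFNA3, an ephrin ligand, was the most abundant of these, at 16.1 ± 2.44 FPKM without and 21.5 ± 0.868 FPKM with the knockdown (SD, n = 3 each), and the other 3 had less than 2 FPKM.

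The chosen genes were also described by annotation and position. They were chosen by name as semaphorins, neuropilins and plexins, so the terms they share follow from the choice. All 10 carry the term semaphorin-plexin signaling pathway in the table's annotation, as do 37 genes in all, and 9 of 10 are on the axon guidance pathway of KEGG. Without the chosen genes, 16 genes with this term, or a term that contains its name, were tested and 1, SEMA6B, was called. The term angiogenesis is carried by NRP1 and NRP2 alone among them. SEMA3F and SEMA3B lie near each other on chromosome 3, with GNAT1, SLC38A3 and GNAI2 between them. Of 14 tested neighbours of this region, 8 were higher and 6 lower, and 0 were called in limma. At an unadjusted p under 0.05, 2 were higher and 1 lower, beside 8.1% and 5.55% of all genes. SLC38A3, an amino acid transporter gene, had 2.69, 2.00 and 2.70 FPKM in shNC and 3.96, 3.56 and 3.78 FPKM in shARHGEF2 libraries (adjusted p = 0.175 in limma), and GNAI2, a G protein subunit, had a ratio of 1.17. IFRD2, beyond SEMA3B, had a ratio of 0.869.

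GC content moved with several of these values. The transcripts of SEMA3F average 62.3% GC, which is above 89.0% of the genes tested, and those of SEMA3B, SEMA6B and SEMA7A average 64.2%, 65.0% and 61.2%, against a median of 51.6%. The libraries differed along GC content, with rank correlations across genes, which are not independent, from -0.47 in shNC replicate 2 to 0.57 in shARHGEF2 replicate 1. In the decile of genes with the highest GC content the median log2 difference between the groups was 0.06. With the GC trend removed from each library, the log2 difference was 0.35 for SEMA3F (standard error 0.07), 1.02 for SEMA6B (adjusted p = 0.0288 in limma), 0.49 for SEMA7A (adjusted p = 0.0939 in limma) and 0.84 for SNAI1 (adjusted p = 0.0473 in limma), and the groups still did not overlap in these 4 genes. For SEMA3B it was 0.09 and the groups overlapped, while PLXNA3 stayed apart at 0.15.

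**Figure D5:**
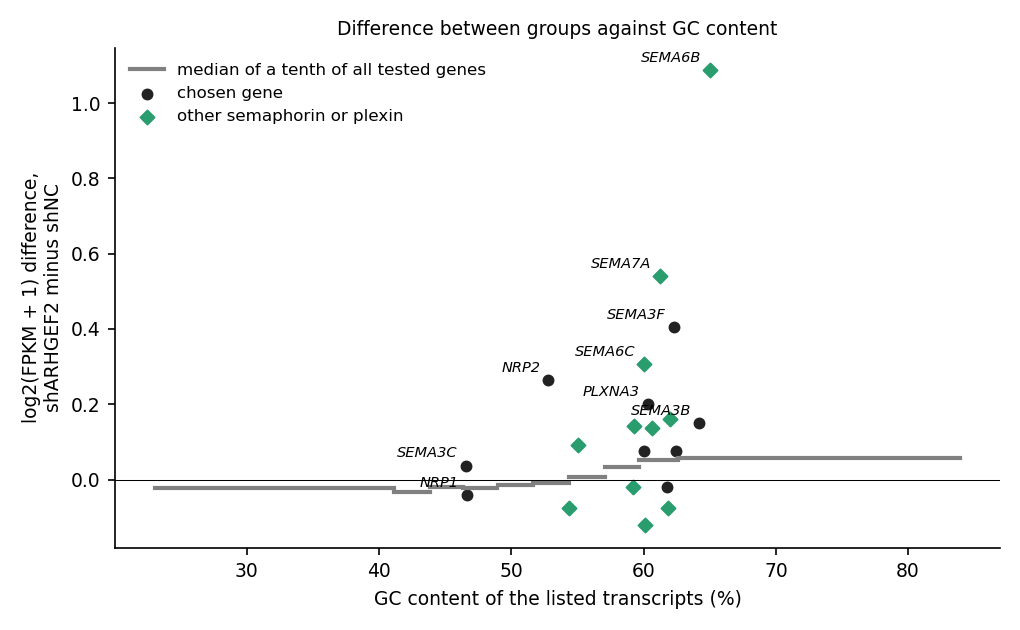
Difference of mean log2(FPKM + 1), shARHGEF2 minus shNC, against the mean GC content of the listed transcripts, for the 20 family genes (points) and as the median of each decile of all tested genes (grey lines). Decile medians run from -0.03 to 0.06, and SEMA6B, SEMA7A and SEMA3F lie above the line of their own GC content.

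Over the 6 libraries, the genes whose log2(FPKM + 1) followed SEMA3F most closely, among 10202 genes averaging 1 FPKM or more, were REEP6, MELTF, EDC4, SART1 and CREB3L1, with Pearson's r between 0.995 and 0.997. These points share the group difference, the libraries' depth and their GC trend, and all 5 genes have a GC content of 57.6% to 64.6%. An r above 0.9 was reached by 5.36% of the genes compared. The share with an r as high as that of the 5 named genes is not given. Among the chosen genes, r with SEMA3F was 0.90 for SEMA3B, 0.87 for PLXNA3, 0.73 for PLXNB2, 0.67 for SEMA4B and 0.56 for NRP2, and between -0.20 and 0.14 for the other 4. SEMA3F was chosen for its group difference, which enters these values. After the group means were subtracted, r was 0.57 for SEMA3B, 0.48 for PLXNA3, 0.88 for PLXNB2, 0.92 for SEMA4B and -0.01 for NRP2. It was 0.54 for PLXNA1, -0.59 for SEMA3C, -0.36 for SEMA3A and -0.12 for NRP1. The share of all genes that reach such values is not given for this measure.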

How the data were processed

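RNA was sequenced from 3 shNC and 3 shARHGEF2 libraries (poly(A) RNA, strand-marked, molecular identifiers in the adapters). The deposited table gives FPKM per gene and library as the authors made it. The submitters' processing notes name cutadapt 1.9, HISAT2 2.0.4, UMI-tools, StringTie 1.3.4d, DESeq2, edgeR and the build hg19, with no annotation. The authors' fold change and p-value columns were not used.

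Values were compared as log2(FPKM + 1) with limma 3.58.1 in R 4.3.3 (trended and robust variances, statmod 1.5.0) for the 12291 genes averaging 0.5 FPKM or more, adjusted by Benjamini-Hochberg over all of them and called under 0.05. The fit was tested on simulated data. Differences on this scale understate changes of low genes. A symbol on more than 1 row was represented by its row with the higher mean. GC content and lengths came from GENCODE 29 transcripts, which matched 94.7% of those listed. Depth was searched over a range narrowed after a wider search gave a multiple of the step in some libraries, and 39.7% to 41.0% of low values lay within 0.1 of a whole pair (20% by chance), so no count test was run. Genes chosen and lists were set with earlier results of these data known. Named are the 10 chosen genes, ARHGEF2, tested family genes, and in each list the genes called and up to 4 with the smallest unadjusted p under 0.05, with the 5 genes most like SEMA3F. L1CAM, FURIN, ZEB1, LAGE3, SNAI3 and other genes outside this rule were added after their values were seen. The labels do not say whether replicate numbers pair the libraries, so the main fit has no block. Alternatives are listed in the closing section. Python 3.11.15, pandas 2.3.3, numpy 2.4.6, SciPy 1.17.1 and matplotlib 3.10.9 were used.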

Additional observations from a re-analysis of the deposited data

How the results depend on the processing

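Results were recomputed with a pseudocount of 0.1, without the filter on low genes, with the filter set to 1 FPKM in 3 libraries, after quantile normalization, with limma's plain variances, with the replicate number as a block, after removal of a GC trend (loess, span 0.3), and with each library left out in turn. Over these 13 alternatives SEMA3F stayed between 0.35 and 0.48, NRP2 between 0.14 and 0.36 and SEMA3B between 0.09 and 0.18 on the log2 scale, while SEMA3C, NRP1 and PLXNA1 changed sign in 2, 2 and 3 of them. The number of genes called, 34 (24 higher, 10 lower), became 1 (0 higher, 1 lower) without the filter, 54 (39 higher) with the stricter filter, 19 (12 higher) after quantile normalization, 7 (4 higher, 3 lower) with plain variances and 0 (0 higher, 0 lower) with the block. It was 13, 14 and 102 without shNC replicates 1, 2 and 3 and 13, 15 and 6 without shARHGEF2 replicates 1, 2 and 3, with 3 to 76 higher and 3 to 26 lower. Of the other family and pathway genes, 2 were called (SEMA6B and SNAI1), and 0 without the filter, after quantile normalization, with plain variances and with the block, against 0 to 2 when a library was left out. The ARHGEF2 difference was -1.47 in both fits where it missed the threshold, without the filter (adjusted p = 0.0701 in limma) and with the replicate block (adjusted p = 0.0716 in limma). The cause of these shifts was not tested. Same-numbered libraries deviated from their group means with correlations of 0.184, 0.159 and -0.105 across genes. The correlations of differently numbered libraries lay between -0.221 and 0.068. With 3 libraries per group, these values cannot tell whether the numbers pair the libraries. The depth behind the FPKM values is an estimate, which limits what can be said of low genes such as SEMA3A.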
